A study of Mus musculus with 9 samples.

Results

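The genes described here are 37 macrophage and antigen-presenting cell genes of the mouse uterus, chosen by symbol from a list of myeloid and MHC class II genes, out of 31274 entries in the expression table. They fall into 4 roles: 5 genes that control the lineage, 13 of resident macrophages, 13 of monocytes and myeloid cells at large, and 6 of MHC class II and antigen presentation. All 37 were in the table. Uterine RNA was sequenced on pseudopregnancy day 4.5, the time at which the mouse uterus becomes receptive to an embryo, after young adult C57BL/6 females had been mated with vasectomized males. The 4 Wnk1f/f mice were controls that carry the floxed allele of the kinase gene Wnk1 without Cre. In the 5 Wnk1d/d mice a Cre recombinase expressed from the progesterone receptor gene deleted exon 2 of Wnk1. Each mouse gave 1 library of whole uterus. The Cre acts in cells that express the progesterone receptor, which are epithelium, stroma and smooth muscle of the uterus, and myeloid cells are not among its known sites of expression.

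Macrophages are among the common leukocytes of the uterus and lie in its stroma and muscle layer. Their survival depends on the receptor CSF1R and its ligands CSF1 and IL-34, and the transcription factor PU.1, encoded by Spi1, keeps the lineage in place. Resident cells engulf dying cells through scavenger and complement proteins, monocytes arrive from blood through the receptor CCR2, and both can load peptides on MHC class II molecules, as dendritic cells do, for T cells to read.

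Expression is given as FPKM, fragment numbers scaled to transcript length and library size. Genes were compared on log2(FPKM + 1), so fold changes of low genes are understated, and a gene was called changed when its limma p-value, adjusted by the Benjamini-Hochberg method over 14728 tested genes, was under 0.05 and the ratio of mean FPKM was at least 1.5 in either direction. Wnk1 itself was lower in every Wnk1d/d library, at 43.4 to 47.3 FPKM in Wnk1f/f and 29.9 to 33.9 FPKM in Wnk1d/d (limma adjusted p = 0.0017). Absolute depth is unknown. What 1 fragment is worth in FPKM, read from low values, differed between libraries by up to 1.36 times when large differences were left out and by up to 1.62 times when they were kept, and both estimates were settled on after their values were seen. Of the cell type markers, the sum of 6 smooth muscle genes was 2797 to 6372 FPKM in Wnk1f/f and 7210 to 13655 FPKM in Wnk1d/d, and the sum of 6 endothelial genes 364 to 403 and 144 to 297 FPKM, so the makeup of the tissue RNA moved with genotype. Their part in the results below was not tested.

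Wnk1f/f replicate 4 stood apart for the members. It held the highest value of all 9 libraries for 28 of 37 members, whereas it was highest of the 9 for 18.2% of all tested genes. The 6 MHC class II and antigen presentation genes summed to 2026 FPKM in it, against 612 to 940 FPKM in the other 3 controls. The same library had 158 FPKM over 6 liver markers, against 8.29 to 10.6 FPKM in the other controls, and 20.5 FPKM over 5 T cell markers, against 0.99 to 5.95 FPKM. Wnk1d/d replicate 4 was the lowest knockout for 28 of 37 members, against 19.4% of all tested genes. A single entry took 70.3% of its summed FPKM, a share that was not computed for the other libraries. Counts of called genes that change without Wnk1f/f replicate 4, or without both replicates 4, are given with those values below, and leaving out both was decided after the values were seen.

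Of the 37 members, 36 passed the filter on low values and 4 were called. Cd14 and Msr1 rose and Cx3cr1 and Tlr2 fell in Wnk1d/d uteri. Over all tested genes 10.3% were called, 5.09% as higher and 5.18% as lower, so 4 of 36 members is close to the background. The genotypes did not overlap for 3 members, Cd14, Msr1 and Cx3cr1, while 19.9% of all tested genes did not overlap. The median log2 fold change of the 36 members was -0.20, against 0.003 for all tested genes, and it was 0.04 without Wnk1f/f replicate 4. In bulk tissue fewer cells of a type and less RNA per cell cannot be told apart. Nor do the values show which cells, myeloid or other, made the RNA. Both limits hold for each gene below, and each role is the name of a list, not a measured source. Without Wnk1f/f replicate 4 the called members were Cd14, Cx3cr1, Gpnmb and Msr1, of 35 tested. Over all genes that fit called 1039 of 14654, 523 as higher and 516 as lower. Without both replicates 4 the called members were Cd14, Cd68, Clec10a, Mrc1 and Msr1, of 35 tested, all higher in Wnk1d/d. Over all genes 806 of 14662 were then called, 409 as higher and 397 as lower.

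**Figure D1:**
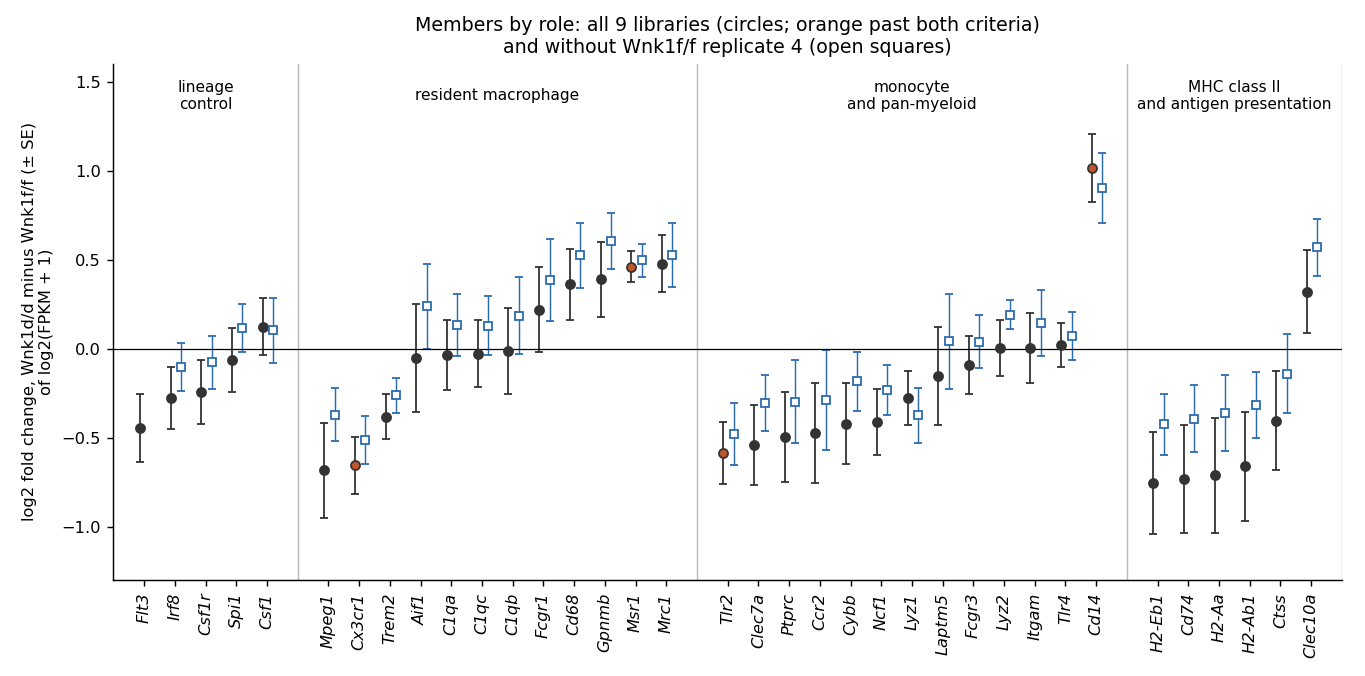
Log2 fold change of Wnk1d/d over Wnk1f/f on the log2(FPKM + 1) scale with its standard error (vertical axis) for the 36 tested members (horizontal axis), grouped by role, from all 9 libraries (circles, orange when past both criteria) and without Wnk1f/f replicate 4 (open squares, absent for Flt3, which then failed the filter). Most squares lie above their circles, and the median moves from -0.20 to 0.04.

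**Figure D2:**
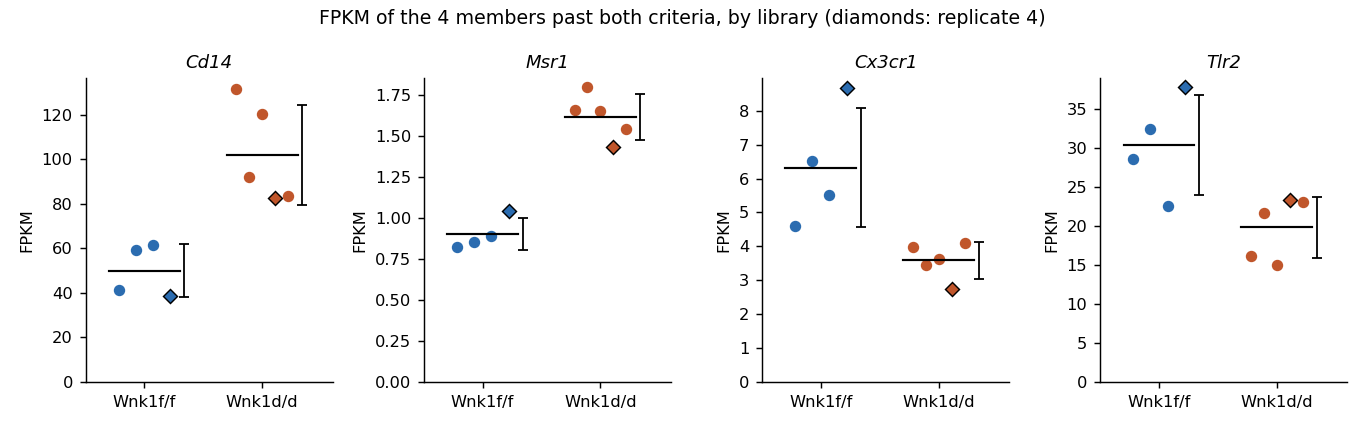
FPKM of the 4 called members in each library (points), with the mean (line) and SD (bar) per genotype and diamonds for replicate 4. Cd14, Msr1 and Cx3cr1 do not overlap between genotypes, while 2 Wnk1d/d libraries lie above the lowest Wnk1f/f library for Tlr2.

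None of the 5 lineage genes was called. Csf1r, the receptor on which macrophages depend, had 15.5, 12.8, 14.9 and 23.4 FPKM in Wnk1f/f replicates 1 to 4 and 16.4, 14.9, 13.95, 9.78 and 13.6 FPKM in Wnk1d/d replicates 1 to 5. The genotypes overlapped, with the highest and the lowest value both in a replicate 4 (log2 fold change -0.24, limma adjusted p = 0.34). Irf8, a transcription factor of monocytes and dendritic cells, had 12.8, 17.3, 18.2 and 26.2 FPKM in Wnk1f/f and 14.6, 15.7, 16.1, 11.9 and 15.8 FPKM in Wnk1d/d, again with overlap (-0.28, limma adjusted p = 0.27). Spi1 had means of 8.12 FPKM in Wnk1f/f and 7.46 FPKM in Wnk1d/d, and Csf1, the ligand of CSF1R, 12.6 and 13.7 FPKM. Flt3, the receptor that dendritic cell precursors need, was low throughout, at 0.62 to 2.04 FPKM in Wnk1f/f and 0.33 to 0.63 FPKM in Wnk1d/d (limma adjusted p = 0.12).

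The other ligands and partners of the colony-stimulating factor receptors did include called genes. Il34, the second ligand of CSF1R, had a mean of 5.42 FPKM in Wnk1f/f and 2.48 FPKM in Wnk1d/d (log2 fold change -0.86, limma adjusted p = 0.016), and its genotypes did not overlap. Csf3, the granulocyte factor G-CSF, rose from 7.80 to 31.6 FPKM (1.95, limma adjusted p = 0.010), also without overlap. These 2 of 6 tested genes of the list were also called without Wnk1f/f replicate 4 and without both replicates 4. Csf2ra, the gene of the list with the highest mean over all 9 libraries, had 30.2 and 26.6 FPKM.

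Among 12 tested resident macrophage genes, Msr1 rose and Cx3cr1 fell. Msr1 encodes a scavenger receptor for modified lipoproteins and lies at chr8:39581685-39642673 on the minus strand (mm10). It had 0.82, 0.85, 0.89 and 1.04 FPKM in Wnk1f/f replicates 1 to 4 and 1.66, 1.80, 1.65, 1.43 and 1.54 FPKM in Wnk1d/d replicates 1 to 5. Every knockout was above every control, although the gene is near the filter of 1 FPKM (means 0.900 ± 0.098 (SD, n = 4) and 1.62 ± 0.139 (SD, n = 5), log2 fold change 0.46, SE 0.09, limma adjusted p = 0.0093). The exact two-sided permutation test gave p = 0.016, the smallest it can give here.

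Cx3cr1, the receptor for the chemokine fractalkine, lies at chr9:119901616-120069879 on the minus strand. Its FPKM was 4.60, 6.53, 5.52 and 8.66 in Wnk1f/f and 3.99, 3.45, 3.64, 2.73 and 4.11 in Wnk1d/d. All controls were above all knockouts, and the highest control and the lowest knockout were again the replicates 4 (log2 fold change -0.66, SE 0.16, limma adjusted p = 0.020, ratio 0.566). Without both of them the adjusted p was 0.063, and the call was lost.

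The complement C1q genes, which resident macrophages transcribe at high levels, were the most abundant of the resident group. C1qa had 71.0, 109.8, 91.7 and 143.4 FPKM in Wnk1f/f and 105.4, 104.9, 109.7, 72.2 and 104.3 FPKM in Wnk1d/d. C1qb had 52.0, 88.9, 75.9 and 123.7 FPKM and 92.5, 87.5, 88.2, 53.8 and 87.4 FPKM in the same order. The genotypes overlapped for both, and for C1qc, with limma adjusted p of 0.91, 0.97 and 0.93. The 3 genes lie together on chromosome 4, and C1qa to C1qb stayed at 1.14 to 1.37 in every library, so the chains kept close to 1 ratio in both genotypes.

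Mrc1, the mannose receptor of tissue macrophages, came close to the criteria. It had 5.87, 4.53, 7.28 and 6.79 FPKM in Wnk1f/f and 10.6, 8.89, 9.60, 6.12 and 9.36 FPKM in Wnk1d/d (ratio 1.46, log2 fold change 0.48, limma adjusted p = 0.059). Only Wnk1d/d replicate 4 overlapped the controls, and without it the gene was called (0.59, limma adjusted p = 0.022). Cd68, a lysosomal membrane protein of macrophages, had means of 15.0 and 19.6 FPKM and Gpnmb, a glycoprotein of lipid-laden macrophages, 2.72 and 3.65 FPKM, neither called. Trem2, a lipid-sensing receptor, had 12.998 and 9.67 FPKM (limma adjusted p = 0.054), and Mpeg1, a pore-forming protein of phagosomes, 18.4 and 10.1 FPKM (limma adjusted p = 0.092). For Mpeg1 the control mean rested on 33.0 FPKM in Wnk1f/f replicate 4, with 10.4 to 16.2 FPKM in the other controls. Aif1, which marks macrophages by its protein IBA1, ran from 9.86 to 34.7 FPKM in Wnk1f/f and from 11.6 to 21.1 FPKM in Wnk1d/d. Fcgr1, the high-affinity Fc receptor, ran from 2.18 to 5.64 and from 2.86 to 6.06 FPKM. Neither was called. Cd163, a haemoglobin scavenger receptor, was at or under 0.81 FPKM in every library and was not tested.

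Among the 13 monocyte and pan-myeloid genes, Cd14 rose and Tlr2 fell. Cd14 encodes a co-receptor for lipopolysaccharide. Its FPKM was 41.1, 59.1, 61.5 and 38.5 in Wnk1f/f replicates 1 to 4 and 131.6, 91.9, 120.4, 82.6 and 83.3 in Wnk1d/d replicates 1 to 5. No knockout library came down to the controls (means 50.02 ± 11.9 (SD, n = 4) and 102 ± 22.6 (SD, n = 5), ratio 2.04, log2 fold change 1.02, SE 0.19, limma adjusted p = 0.0087, exact permutation p = 0.016). Cd14 was the one called member whose means differed by at least 2 times, and it was among the 5 members for which Wnk1f/f replicate 4 was not the highest control.

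Tlr2, a receptor for bacterial lipoproteins that works with CD14, lies at chr3:83836272-83841767 on the minus strand. It had 28.6, 32.5, 22.6 and 37.8 FPKM in Wnk1f/f and 16.2, 21.6, 15.0, 23.3 and 23.1 FPKM in Wnk1d/d. The genotypes overlapped between Wnk1f/f replicate 3 and Wnk1d/d replicates 4 and 5 (log2 fold change -0.59, SE 0.17, limma adjusted p = 0.039). The call was lost in 9 of 20 other settings, among them without Wnk1f/f replicate 4 (-0.48, limma adjusted p = 0.11). Tlr4, the receptor to which CD14 passes lipopolysaccharide, had means of 5.28 and 5.41 FPKM.

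The other monocyte and pan-myeloid genes were not called. Lyz2, the lysozyme of macrophages and neutrophils, had 155, 141, 167 and 259 FPKM in Wnk1f/f and 164, 187, 182, 166 and 180 FPKM in Wnk1d/d. Its 5 knockout values lay inside the range of the controls (limma adjusted p = 0.99). Lyz1, a near-identical neighbour on chromosome 10, had 3.01 to 6.06 FPKM over the 9 libraries, and how fragments were split between the 2 lysozyme genes is uncertain. Ccr2, the monocyte homing receptor, had means of 23.9 and 16.5 FPKM, Itgam, the integrin CD11b, 4.38 and 4.29 FPKM, and Ptprc, the leukocyte antigen CD45, 17.8 and 11.7 FPKM. The NADPH oxidase genes Cybb and Ncf1 had 5.53 and 6.12 FPKM in Wnk1f/f and 3.74 and 4.21 FPKM in Wnk1d/d. The low-affinity Fc receptor Fcgr3 had means of 15.1 and 13.9 FPKM, the lysosomal protein Laptm5 24.8 and 21.7 FPKM, and the fungal glucan receptor Clec7a 2.28 and 1.17 FPKM. All 3 overlapped between genotypes, and the lowest limma adjusted p of these was 0.11, for Clec7a.

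None of the 6 MHC class II and antigen presentation genes was called, while their median log2 fold change, -0.69, was the lowest of the 4 roles. It was -0.34 without Wnk1f/f replicate 4. H2-Aa, the alpha chain of the I-A molecule, had 146, 198, 226 and 496 FPKM in Wnk1f/f and 174, 101, 153, 131 and 184 FPKM in Wnk1d/d. Cd74, the invariant chain that guards the peptide groove, had 219, 325, 351 and 749 FPKM and 250, 185, 225, 188 and 278 FPKM. For both genes the ranges overlapped through Wnk1f/f replicate 1, and Wnk1f/f replicate 4 was above every other library (limma adjusted p = 0.14 and 0.11). H2-Ab1 and H2-Eb1, the beta chains of I-A and I-E, had log2 fold changes of -0.66 and -0.75 (limma adjusted p = 0.14 and 0.086).

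**Figure D3:**
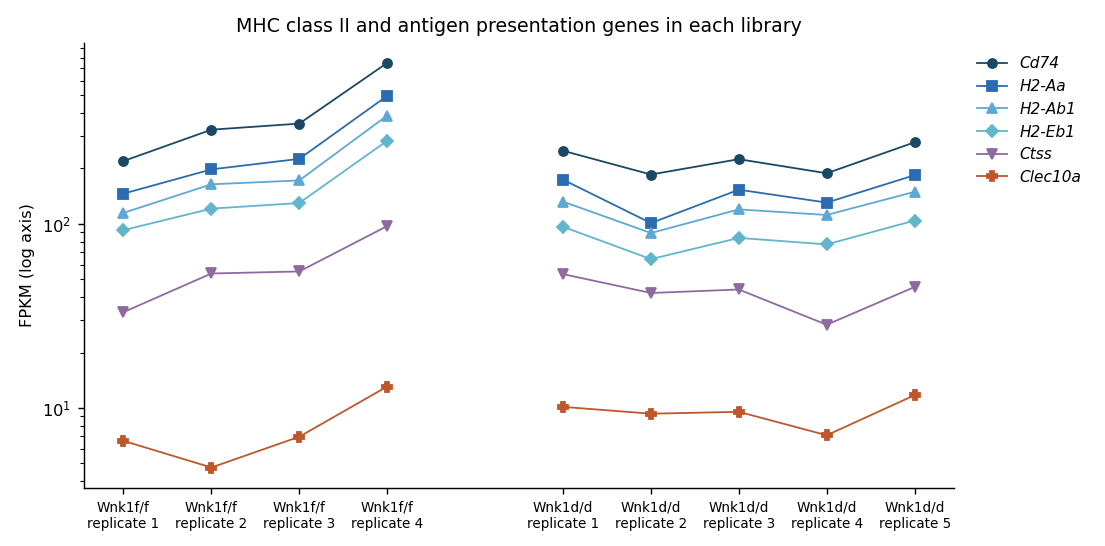
FPKM (log axis) of the 6 MHC class II and antigen presentation genes in each library (horizontal axis, Wnk1f/f then Wnk1d/d). Cd74, H2-Aa, H2-Ab1 and H2-Eb1 run in parallel and peak in Wnk1f/f replicate 4, where Cd74 reaches 749 FPKM.

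The class II genes moved together from mouse to mouse. H2-Aa over H2-Ab1 was 1.13 to 1.32 in the 9 libraries and Cd74 over H2-Ab1 1.68 to 2.08, although the FPKM of H2-Ab1 itself ran from 89.2 to 388. Ctss, the protease that trims the invariant chain, had means of 59.9 and 42.7 FPKM (limma adjusted p = 0.31). Clec10a, a galactose lectin of dendritic cells and macrophages, went the other way, with 7.86 FPKM in Wnk1f/f and 9.57 FPKM in Wnk1d/d, and it was called as higher when both replicates 4 were left out (0.66, limma adjusted p = 0.033).

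The promoters of class II genes are known for an X box and a Y box, short elements at which the transactivator CIITA is recruited. They are shown because these genes moved in parallel. A search was made for the letters CTGATTGG as the core of the Y box, AACNGATG for the X box and GAGGAAGT for the site of PU.1, on both strands, in the 250 bases before the start of each gene, from RefSeq on GRCm38.p6. Windows of 28 members were searched. Csf1r, Spi1, C1qa, Msr1, Cd14, Tlr4, H2-Ab1, Cd74 and Clec10a were not searched. The Y box letters stood before H2-Aa, H2-Eb1 and Irf8, the X box letters before H2-Eb1 and Ctss, and the PU.1 letters before C1qc. Of 32851 promoter windows 3.83% held the Y box letters, 1.98% the X box letters and 2.44% the PU.1 letters. A match describes letters only, and any part of these letters in the parallel movement was not tested. The Y box letters spanned bases 51 to 44 before the start of H2-Aa and 62 to 55 before that of H2-Eb1. The 200 bases before 2 of the class II genes follow, 5′ to 3′ on the strand of the gene, with the matched letters in capitals, at chr17:34287824-34288023 (minus strand) and chr17:34305667-34305866 (plus strand).
H2-Aa: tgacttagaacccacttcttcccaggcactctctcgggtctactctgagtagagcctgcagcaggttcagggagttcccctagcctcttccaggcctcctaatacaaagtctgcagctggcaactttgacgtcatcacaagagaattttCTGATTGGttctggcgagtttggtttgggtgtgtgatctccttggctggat
H2-Eb1: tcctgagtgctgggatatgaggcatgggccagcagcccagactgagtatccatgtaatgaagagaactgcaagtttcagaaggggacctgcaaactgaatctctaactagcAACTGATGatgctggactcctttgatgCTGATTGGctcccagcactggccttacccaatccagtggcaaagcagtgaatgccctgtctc

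Because several members followed the replicates 4, their FPKM was also set over that of Csf1r within each library, a description chosen after the values were seen. Msr1 over Csf1r was 0.044 to 0.067 in Wnk1f/f and 0.10 to 0.15 in Wnk1d/d. Mrc1 over Csf1r was 0.29 to 0.49 and 0.60 to 0.69, and Cd68 over Csf1r 0.75 to 1.08 and 1.29 to 1.55. For these 3 genes and for Cd14, at 1.64 to 4.63 and 6.13 to 8.63, the genotypes did not overlap. The other 7 of the 11 members set over Csf1r overlapped. Cx3cr1 over Csf1r did so narrowly, at 0.30 to 0.51 and 0.23 to 0.30, and H2-Aa over Csf1r broadly, at 9.41 to 21.2 and 6.77 to 13.5. Tlr2 over Csf1r, at 1.52 to 2.55 and 0.99 to 2.39, also overlapped, as did C1qa, Cybb, Mpeg1 and Ptprc. Mrc1 and Cd68 overlapped in FPKM before the division. Csf1r itself had a mean of 16.6 FPKM in Wnk1f/f and 13.7 FPKM in Wnk1d/d, which by itself raises ratios in Wnk1d/d. The share of all tested genes that would not overlap when set over Csf1r was not computed.

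**Figure D4:**
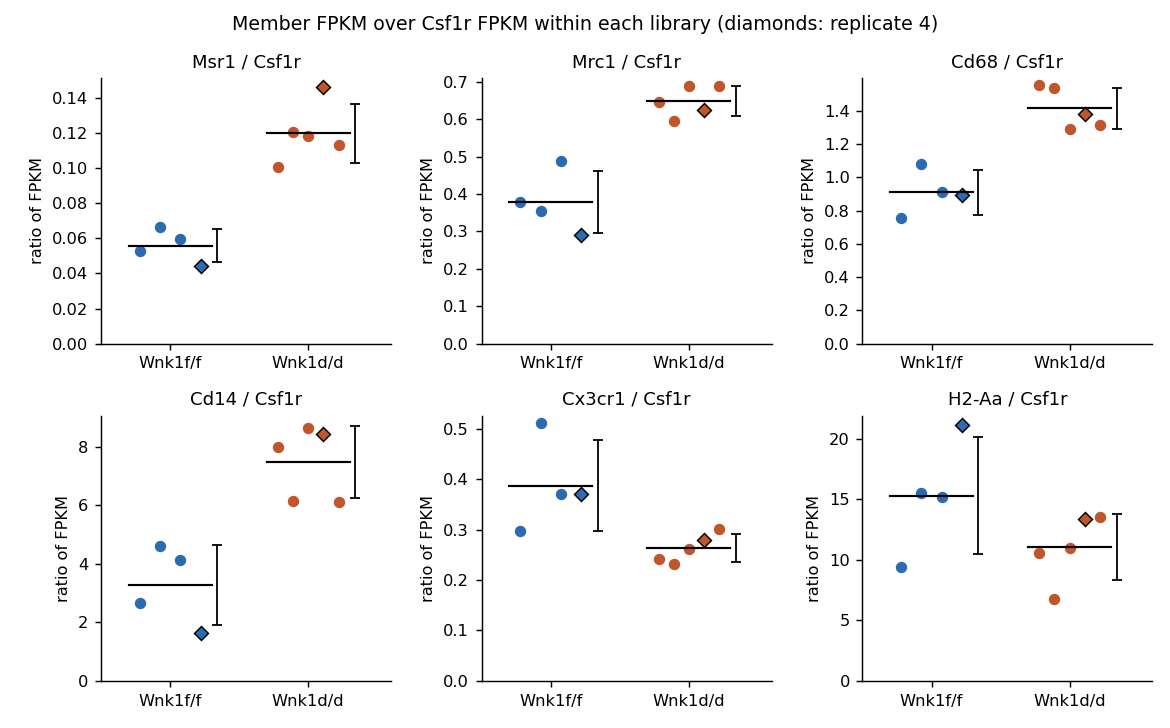
FPKM of 6 members divided by the FPKM of Csf1r in the same library (points, diamonds for replicate 4), with the mean (line) and SD (bar) per genotype. Msr1, Mrc1, Cd68 and Cd14 do not overlap between genotypes, whereas Cx3cr1 and H2-Aa do.

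Genes outside the 37 that share these roles were mixed in direction. Of 16 tested other resident macrophage genes, 3 rose and 1 fell. Cbr2, a carbonyl reductase, rose from 41.3 to 340 FPKM (log2 fold change 3.02, limma adjusted p = 0.0057), Pf4, a chemokine also made by megakaryocytes, from 6.88 to 12.99 FPKM, and F13a1, a transglutaminase, from 6.98 to 11.1 FPKM. Adamdec1, a secreted protease, fell from 77.1 to 7.56 FPKM. Its control mean rested in part on 177 FPKM in Wnk1f/f replicate 4, with 31.3 to 58.4 FPKM in the other controls. The ratio for Adamdec1 was 0.098 with that library and 0.173 without it. Cbr2 ran from 140 to 694 FPKM in Wnk1d/d, where the resident macrophage gene C1qa ran from 72.2 to 110 FPKM. Which cells made the Cbr2 RNA was not tested. Adgre1, which encodes the macrophage antigen F4/80, had means of 10.8 and 8.10 FPKM and was not called (limma adjusted p = 0.43). Without Wnk1f/f replicate 4, Cbr2, Pf4 and Adamdec1 were called and F13a1 was not. Without both replicates 4, the same 3 were called together with Folr2, a folate receptor (log2 fold change 0.63, limma adjusted p = 0.019), and Lyve1, a hyaluronan receptor (0.72, limma adjusted p = 0.035), both higher in Wnk1d/d. None of 7 tested other monocyte genes was called with limma, where 1 had an unadjusted p under 0.05. Plac8, the most abundant of them, had 736 and 731 FPKM.

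Dendritic cell and class II pathway genes that were called were lower. Of 9 tested dendritic cell genes 3 fell: Itgax, the integrin CD11c, from 4.33 to 1.40 FPKM (log2 fold change -1.08, limma adjusted p = 0.012), and Batf3 and Clec9a, a factor and a receptor of cross-presenting dendritic cells, with limma adjusted p of 0.038 and 0.043. Of 11 tested genes of the class II pathway 2 fell, H2-Ob, a chain of the peptide-exchange inhibitor H2-O, from 3.07 to 1.71 FPKM and Cd83, a surface protein of mature dendritic cells, from 15.8 to 8.68 FPKM. Without Wnk1f/f replicate 4 only Itgax and H2-Ob of these 5 genes were called, and without both replicates 4 only Cd83. Lgmn and Id2, the most abundant genes of the 2 lists, had means of 139 and 157 FPKM and of 89.3 and 100.02 FPKM.

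Among 10 tested genes of Fc receptor and ITAM signalling, Syk, the kinase that these receptors recruit, fell from 5.63 to 3.75 FPKM (limma adjusted p = 0.032). It was not called without Wnk1f/f replicate 4 (limma adjusted p = 0.087) or without both replicates 4 (limma adjusted p = 0.14). Tyrobp, the adaptor that TREM2 uses, had the highest mean of the list, at 107 and 76.2 FPKM. Of the 4 partners of the NADPH oxidase none was called with limma, where 1 had an unadjusted p under 0.05, and Cyba was the most abundant.

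**Figure D5:**
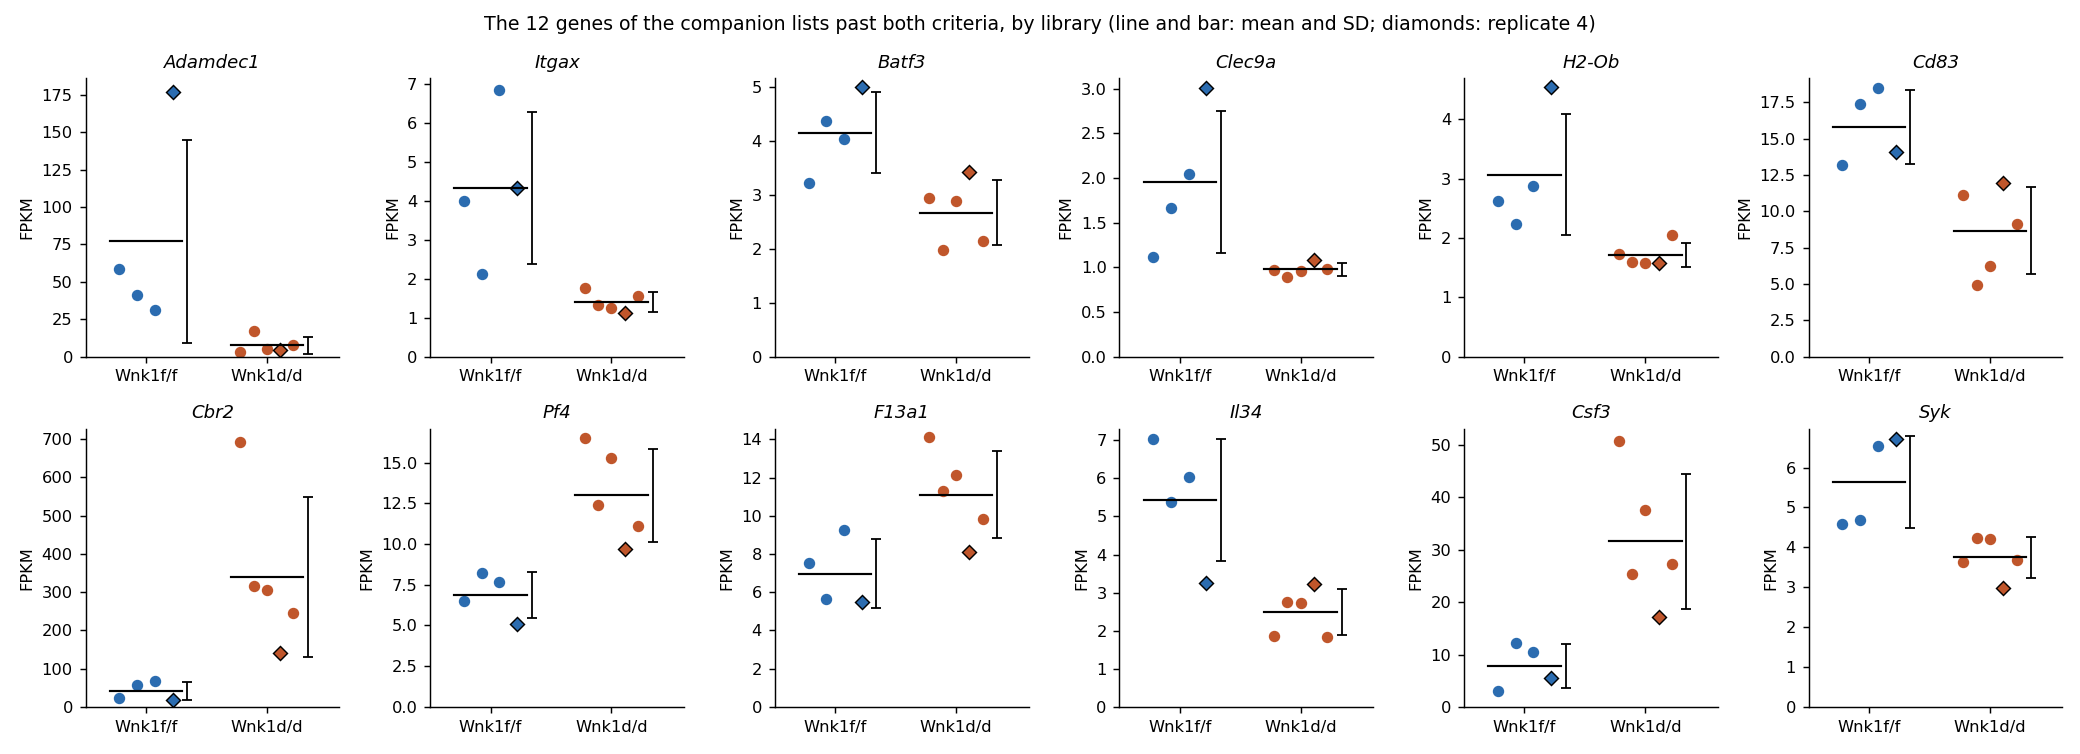
FPKM of the 12 called genes of the companion lists in each library (points, diamonds for replicate 4), with the mean (line) and SD (bar) per genotype. Cbr2, Pf4, F13a1 and Csf3 are higher in Wnk1d/d, and the other 8 are lower.

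Markers of other leukocytes were checked beside these results. Neutrophil markers summed to 0.88 to 7.22 FPKM in Wnk1f/f and 0.89 to 5.77 FPKM in Wnk1d/d, and B cell markers to 1.24 to 3.55 and 1.46 to 2.13 FPKM. Both sums were highest in Wnk1f/f replicate 4, where the neutrophil marker Retnlg had 4.83 FPKM. Of 5 tested eosinophil and mast cell markers 2 rose, the mast cell proteases Cpa3 (4.13 to 8.07 FPKM) and Mcpt4 (5.41 to 9.37 FPKM), of which Mcpt4 was not called without both replicates 4 (limma adjusted p = 0.063). Of 6 tested natural killer cell markers 1 fell, the transcription factor Eomes, which was not called without Wnk1f/f replicate 4 (limma adjusted p = 0.11), without Wnk1d/d replicate 4 (limma adjusted p = 0.080) or without both (limma adjusted p = 0.18). None of 3 tested T cell markers was called with limma, where 0 had an unadjusted p under 0.05. The 6 liver, 3 red blood cell, 1 neutrophil and 1 B cell markers that were tested held 0 calls with limma, and 1 of them, a liver marker, had an unadjusted p under 0.05. The liver marker Serpina1a was called as higher without Wnk1f/f replicate 4 (log2 fold change 1.83, limma adjusted p = 0.033) and without both replicates 4 (2.04, limma adjusted p = 0.031). Stromal markers had 2 of 6 lower, Pdgfra and Hoxa11. Without Wnk1f/f replicate 4 only Pdgfra of the 6 was called, and without both replicates 4 Pdgfra and Hand2. Endothelial markers had 5 of 6 lower and smooth muscle markers 6 of 6 higher, and in either case of left-out libraries these were 3 lower and 4 higher. Epithelial markers had 0 of 6 called with limma, where 1 had an unadjusted p under 0.05. Their part in the values of the 37 members was not tested.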

How the data were processed

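The authors aligned paired-end reads to mm10 with TopHat2 2.0.4 and made FPKM values with Cufflinks 2.0.2, per the labels. The deposited table holds 1 FPKM column for each of 9 mice, and the gene annotation behind it is not given in the sources used here. FPKM is scaled to gene length and library size, so neither counts nor depth could be recovered, and no count test was made. All columns belonged to a labelled mouse.

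The test on log2(FPKM + 1) covered genes whose mean exceeded 1 FPKM in either genotype and used limma 3.58.1 in R 4.3.3 (trend, unpaired). It was run on simulated data that left out the lowest genes, Msr1 among them, and drew noise independently for each gene. That check did not cover a shift of many genes in 1 library. For single genes, 126 assignments of the libraries gave an exact permutation test, two-sided (SciPy 1.17.1), whose smallest p is 0.016. Relative depth was estimated in 3 ways, of which the first gave no differences between libraries, and the 2 others are reported.

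The members and lists were chosen with earlier results of these data known. Members are named by role, in full where called or among the 2 most abundant of a role, and list genes where called, with the most abundant of each list. Coordinates are from GENCODE M21, by symbol. The alternatives were pseudocounts of 0.1 and 0.5, other filters, scalings, limma settings and ratios, a replicate block and leaving out libraries. Replicate numbers are shared between genotypes but belong to different mice.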

Additional observations from a re-analysis of the deposited data

Results flagged for a closer look

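In 6 of 74 tests a library lay far from the others of its genotype, at a level chance gives about 1 in 20 times. Flt3 was highest in Wnk1f/f replicate 4, at 2.04 FPKM against 0.62 to 0.75 FPKM in the other controls. Cybb was also highest there, at 9.20 FPKM against 3.91 to 4.57 FPKM. The 3 complement genes were lowest in Wnk1d/d replicate 4, C1qa at 72.2 FPKM against 104.3 to 109.7 FPKM, C1qb at 53.8 FPKM against 87.4 to 92.5 FPKM and C1qc at 55.5 FPKM against 80.2 to 84.1 FPKM. Tlr4 was lowest in Wnk1d/d replicate 3, at 3.88 FPKM against 5.54 to 6.05 FPKM. The flags of the 3 complement genes are not independent, since C1qa to C1qb stayed at 1.14 to 1.37 in every library. The share of all tested genes with such a library is not given.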

How the results depend on the processing

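The calls of Cd14 and Msr1 held in 19 of 20 settings, that of Cx3cr1 in 18 and that of Tlr2 in 11. Leaving out 1 library gave 3 to 7 called members, 2 to 3 higher and 1 to 5 lower. Over all genes these fits called 1019 to 1870. The 7, with 5 lower, came without Wnk1f/f replicate 1 where Cd74, H2-Eb1, Mpeg1 and Ncf1 were called and Tlr2 was not. There 1378 of 14738 genes were called, 675 of them lower. Without both replicates 4, 5 members were higher and 0 lower, against 409 and 397 of all genes. A ratio of at least 2 left 1 member, higher, and 0 lower, against 332 and 218 of all genes. Without a filter and with library weights 1 member was lower, against 919 of 21949 and 843 of 14728 genes. With the replicate block 1 member was called, lower (Tlr2), and 0 higher, and over all genes 218 in place of 1513. That fit uses Wnk1d/d replicate 5 for no comparison. Between same-numbered libraries, deviations of log2(FPKM + 1) from the genotype mean correlated by -0.27 to 0.02, which gave no sign that the numbers pair mice. Why each setting moved the counts was not tested, the smaller number of libraries included.

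Of 36 members 11 changed sign in some setting, none of them called in any. Leaving out 1 library, log2 fold changes ranged from -0.23 to 0.12 for Spi1, -0.20 to 0.13 for C1qa, -0.23 to 0.19 for C1qb, -0.17 to 0.13 for C1qc, -0.34 to 0.24 for Aif1, -0.12 to 0.14 for Itgam, -0.10 to 0.19 for Lyz2, -0.22 to 0.038 for Fcgr3, -0.044 to 0.12 for Tlr4 and -0.39 to 0.042 for Laptm5. Without both replicates 4 they were 0.033 for Csf1r, 0.15 for Spi1, 0.24 for C1qa, 0.33 for C1qb, 0.24 for C1qc, 0.38 for Aif1, 0.10 for Fcgr3 and 0.21 for Laptm5. With library weights they were 0.0038 for Spi1, 0.056 for C1qa, 0.092 for C1qb, 0.064 for C1qc and 0.12 for Aif1. With the replicate block Itgam was at -0.0063 and Lyz2 at -0.0060, and with quantile normalization Lyz2 was at -0.14. Depth is unknown, so the counting error of low values, as for Msr1 and Flt3, cannot be estimated.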
